A study of Mus musculus with 16 samples.

Results

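Macrophages exposed to SR9009 and then to LPS were compared with macrophages of the same mice that had received only the vehicle, DMSO. The comparison holds 8 of the 16 libraries of the study, 4 a side, chosen by the treatment written in their labels and by no measured value. The cells were wild type bone marrow-derived macrophages from 4 male C57BL6 mice, and each mouse gave 1 library to each of 4 groups. All groups, controls included, were differentiated and treated in medium with L929 cell supernatant, a source of the macrophage growth factor M-CSF, so none was free of that stimulus. SR9009 was given at 10 µM for 16 hours and LPS at 100 ng/mL for 6 hours after it. The ages of the mice are not given in the labels, and the labels do not say whether the LPS group received DMSO overnight. The comparison measures the net state after both agents, and within it the share of either agent cannot be told apart. The 4 libraries of LPS alone, from the same mice, are therefore set beside it for some of the genes and lists. The difference between SR9009 with LPS and LPS alone was itself tested for every gene, but is not given for all.

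LPS, a bacterial outer membrane component, is bound by CD14 and sensed by Toll-like receptor 4, which switches on NF-κB and, through a second adaptor, interferon regulatory factors. The first gives cytokines, chemokines and the enzymes of nitric oxide and prostaglandin synthesis, and the second gives type I interferon and, through it, the interferon-stimulated genes. SR9009 is a synthetic agonist of the nuclear receptors REV-ERBα and REV-ERBβ (genes Nr1d1 and Nr1d2), heme-binding repressors of the circadian clock that also silence some inflammatory genes in macrophages. The title of the series concerns the timing of fibrinolysis by innate immune cells. Fibrinolysis rests on plasmin, which the activators encoded by Plau and Plat release from plasminogen. Serine protease inhibitors such as PAI-2 (Serpinb2) hold back these activators.

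The 8 libraries held 18539925 to 24214863 counts each. Levels are CPM, counts divided by library sizes scaled with TMM, whose factors were 1.16 to 1.26 in the DMSO libraries and 0.853 to 0.907 after SR9009 and LPS. On the first principal component of the 12 libraries of the 3 groups used here (65.1% of the variance), DMSO lay at −114.8 to −93.57, SR9009 with LPS at 21.91 to 43.2 and LPS alone at 60.75 to 74.95. The second component (16.1%) parted the mice: after SR9009 and LPS, mice 1 and 2 lay at −74.36 and −59.19, and mice 3 and 4 at 34.34 and 36.84. The labels give no batch, litter or date for these mice, so this split is a feature of the values alone. Only some of the results it touches are given with the libraries of each mouse. Others are given as 1 value over all 4 mice, so a result without levels by mouse may also differ between the pairs. The macrophage identity in the labels was met by all 10 macrophage markers examined, whose summed level was 7380 to 11400 CPM in the DMSO libraries and 11000 to 11500 CPM after both agents. Of these 10 markers, 4 were called higher (Adgre1, Cd14, Fcgr1, Spi1) and 2 lower, among them Csf1r. Among markers of other cells, the 7 of B cells summed to 180.0 to 220.0 CPM in DMSO and to 9.69 to 50.5 CPM after both agents, with Ebf1 at 0 in both groups. The 6 of endothelial cells summed to 29.1 to 39.7 CPM and 103 to 198 CPM, with Tek and Emcn at 0 in the second group. Of these, Cdh5, Kdr and Pecam1 were called higher and Vwf lower. The 7 osteoclast markers summed to 12.1 to 19.2 CPM and 32.7 to 50.6 CPM, with Acp5, Ctsk, Mmp9 and Ocstamp called higher. The sums of the 8 stromal markers were 1.07 to 2.96 CPM and 3.41 to 9.24 CPM, and those of the 8 neutrophil markers 0.182 to 0.401 CPM and 0.707 to 5.81 CPM. The 7 of T cells stayed at 5.19 to 12.0 CPM over both groups, and those of mast, erythroid and NK cells summed to less than 1 CPM. In such bulk libraries fewer cells of a type and less RNA per cell cannot be told apart, and the part these cells had in any result was not tested.

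The net change was broad. Of 13438 genes tested, 3187 (23.7%) were higher and 3051 (22.7%) lower than in DMSO by edgeR's quasi-likelihood test with Benjamini-Hochberg adjustment at 0.05, which is 46.4% of the genes in all. By at least 2-fold, 1871 genes (13.9%) were higher and 1803 (13.4%) lower. A change of at least 8-fold was found for 411 genes upward and for 194 downward. The median log2 fold change over all genes was −0.05. Upper-quartile scaling moved that median to −0.18 and the share of called genes that were higher from 51.1% to 41.6%, with 2745 genes higher and 3853 lower. Directions below are relative to the median of all genes. The 4 libraries of each group did not overlap for 5569 of the 6238 called genes, and 5975 of them had the same direction in 4 of 4 mice. Over all 13438 genes tested, called or not, the groups did not overlap for 6108, so a lack of overlap was common. Counts in each gene list below stand beside the 23.7% higher and 22.7% lower of all genes.

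Genes with the largest rises included effectors of activated macrophages. Nos2 (chr11:78811613-78851080, plus strand, GRCm39), the inducible nitric oxide synthase, stood at 0.592, 1.23, 0.234 and 0.263 CPM in the DMSO libraries of mice 1 to 4 and at 999, 2133, 1175 and 1319 CPM after SR9009 and LPS. The groups lay far apart, and the log2 fold change was 11.26 ± 0.72 (SE, adjusted p = 4.35e-07 by edgeR). Ptgs2, the inducible cyclooxygenase of prostaglandin synthesis, stood at 0.410, 0.885, 0.301 and 0.493 CPM in DMSO and at 37.1, 84.3, 975 and 1085 CPM after both agents. Every treated library was above every control, but mice 3 and 4 were far above mice 1 and 2, and the log2 fold change of 10.02 carried an SE of 1.28 (adjusted p = 5.66e-05 by edgeR). Il12b, a subunit of interleukin-12 and interleukin-23, showed the same order of mice, with 24.9, 26.6, 104 and 116 CPM after both agents against 0 to 0.228 CPM in DMSO, a log2 fold change of 10.08. Cxcl3, a neutrophil-attracting chemokine, was at 3.00 and 3.24 CPM in mice 1 and 2 and at 131 CPM or more in mice 3 and 4 after both agents, against 0 to 0.154 CPM in DMSO, and its call was lost with limma-voom. Adamts4, a protease that cleaves the proteoglycans aggrecan and versican, had the opposite order of mice, with 125, 113, 22.7 and 24.1 CPM against 0 to 0.115 CPM (log2 fold change 9.96). Lcn2, the iron-scavenging lipocalin, rose by 9.22 on the log2 scale to 50.2 to 190.5 CPM. Of the 10 largest rises only Adamts4 and Lcn2 were called against LPS alone. Adamts4 lay 2.18 above LPS alone, a call that ended whichever mouse was left out. Lcn2 lay 2.27 below LPS alone (531 to 897 CPM), a call that ended without mouse 2.

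Some genes with large rises were close to silent in DMSO, so their fold change rests on few control counts. Shisa3, for which the DMSO libraries held 0 counts, had 963 counts after both agents and was at least 508-fold higher against a floor of 3 counts over the group. Il6, the acute-phase cytokine, had 1578 counts against 2, a ratio of 1249 (exact 95% interval 345 to 10320, counting error only), and its levels after both agents were 3.35, 6.77, 34.2 and 47.7 CPM. Itgb8, an integrin subunit that activates latent TGF-β, had 2050 counts against 2, a ratio of 1622 (449 to 13410). Edn1, which encodes the vasoconstrictor endothelin-1, had 2206 counts against 3, a ratio of 1164 (398 to 5648), and was at 1.29 CPM in mouse 1 and 10.5 to 59.1 CPM in the others. Endothelin-1 is also made by endothelial cells, whose summed marker levels are given above. PCR duplicates cannot be removed from these counts, so the intervals cover less than the whole error.

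The 10 largest falls, like the rises, were named by the size of the change. Cd28, best known as a T-cell costimulatory receptor, stood at 79.3, 76.8, 84.1 and 57.4 CPM in DMSO and at 0, 0.353, 0.285 and 0 CPM after both agents. No library overlapped, and the log2 fold change was −8.80 ± 0.64 (adjusted p = 9.36e-07 by edgeR), beside the T-cell marker sums given above. Cxcr4, the receptor of the chemokine CXCL12, was at 292, 259, 282 and 236 CPM in DMSO and at 4.11, 3.36, 2.28 and 3.08 CPM after both agents. The groups lay far apart, and the log2 fold change was −6.38 ± 0.21 (adjusted p = 8.18e-09 by edgeR). Of the 10 largest falls only Cxcr4 was called against LPS alone. It lay 0.77 above LPS alone, a call that ended without mouse 2, 3 or 4. Hpgd, which inactivates prostaglandins, fell by 5.74, from 126 ± 23.7 to 2.34 ± 1.02 CPM (SD, n = 4 each). Rasgrp3, an activator of Ras, and Gpr34, a receptor for lysophosphatidylserine, each fell by 7.54. Slco2b1 (an organic anion transporter), Eps8 (an actin regulator), Slc26a11 (an anion transporter) and Vipr1 (a receptor for vasoactive intestinal peptide) fell by 6.74, 6.58, 5.88 and 5.78. Ciita, the master activator of MHC class II genes, fell by 5.35, from 8.78 to 18.1 CPM in DMSO to 0.228 to 0.411 CPM.

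**Figure D1:**
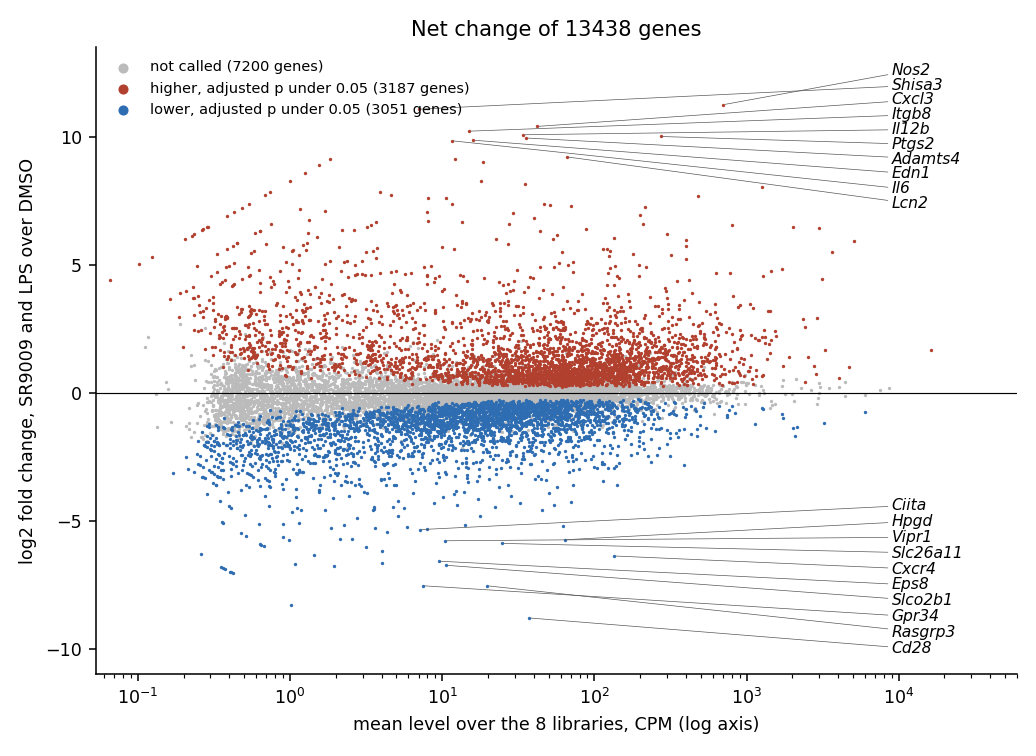
Each point is 1 of 13438 genes, with its mean level over the 8 libraries (CPM, log axis) and its log2 fold change in SR9009 and LPS over DMSO; red points were called higher and blue points lower at an adjusted p under 0.05. The 10 largest rises and 10 largest falls among well-expressed protein-coding genes are named, from Nos2 at 11.26 to Cd28 at −8.80.

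The plasminogen system changed in its inhibitors, in both activators and in some of its surface proteins. Of 25 genes listed, 20 passed the filter on low counts, and 10 of these rose and 3 fell, with a median log2 fold change of 1.00 against −0.05 over all genes. The 5 that did not pass were Serpinf2, A2m, F3, Tfpi2 and Cpb2. With LPS alone 11 of the 20 were higher and 3 lower than in the same DMSO libraries (26.3% and 28.7% of all genes). Against LPS alone, where 4.23% of all genes were lower, 2 of the 20 were lower, Serpinb2 among them, and 0 were higher. Serpinb2 (chr1:107439153-107463208, plus strand, GRCm39), which encodes the largely intracellular inhibitor PAI-2, was at 0.728, 1.46, 0 and 0 CPM in DMSO. It was at 8.64, 17.9, 16.9 and 22.3 CPM after both agents and at 138, 204, 179 and 155 CPM after LPS alone. The 3 groups did not overlap. It rose by 4.96 ± 0.78 over DMSO (adjusted p = 0.000276 by edgeR) and lay 3.36 below LPS alone on the log2 scale (adjusted p = 0.0101 by edgeR), a difference no longer called without mouse 1 or without mouse 2.

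The 2 activators moved in opposite directions over DMSO. Neither they nor Plaur, Anxa2 or Procr were called against LPS alone. Plau, which encodes urokinase (chr14:20886728-20893453, plus strand), was at 25.8, 22.8, 30.9 and 44.2 CPM in DMSO and at 2.29, 2.65, 5.64 and 8.24 CPM after both agents. The groups did not overlap, and the log2 fold change of Plau was −2.71 ± 0.41 (adjusted p = 0.000196 by edgeR). Plat, the tissue-type activator, rose by 5.13 (SE 0.56, adjusted p = 1.57e-05 by edgeR) but remained low, at 1.24 to 2.77 CPM against 0 to 0.115 CPM. Plaur encodes the urokinase receptor and was at 16.2, 11.9, 8.02 and 10.7 CPM in DMSO and at 7.05, 12.9, 43.2 and 65.1 CPM after both agents. Its log2 fold change of 1.46 ± 0.59 was not called (adjusted p = 0.0621 by edgeR): the treated level was below the DMSO level in mouse 1, near it in mouse 2 and several times above it in mice 3 and 4. In the fits of mouse pairs alone it was −0.50 in mice 1 and 2 and 2.56 in mice 3 and 4.

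Of the proteins that hold plasminogen at the cell surface, Anxa2 (annexin A2) rose by 1.01, from 245 to 370.5 CPM to 576 to 629.8 CPM. Its partner S100a10 had a log2 fold change of 0.36 and the plasminogen receptor Plgrkt one of 0.26, and neither was called. Eno1, a glycolytic enzyme that also binds plasminogen, rose by 0.99, and its call ended without mouse 3 or mouse 4. Serpinb6a and Serpinb8, intracellular serine protease inhibitors, fell by 0.72 and 1.42. Serpine2 (protease nexin-1) was called higher at 1.86, but it was at 0.470 and 0.530 CPM in treated mice 1 and 2, inside the DMSO range of 0.167 to 0.592 CPM, and the call ended without mouse 3 or mouse 4. In the coagulation genes of the list, Procr (the endothelial protein C receptor) rose by 4.93, F10 by 2.81 and F7 by 1.62. F10 was at 15.3 to 18.8 CPM and F7 at 0.770 to 1.00 CPM after both agents. Lrp1, F13a1, Tfpi and Thbd were not called. F13a1, the factor XIII A chain, differed more between mice than between treatments, at 181, 90.0, 26.9 and 24.0 CPM in DMSO and 130.0, 64.1, 9.12 and 8.12 CPM after both agents. It was lower in 4 of 4 mice and was called lower, like Lrp1, when mouse number was a factor in the fit (log2 fold changes of −1.02 and −0.42), which made 5 lower genes of the 3.

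**Figure D2:**
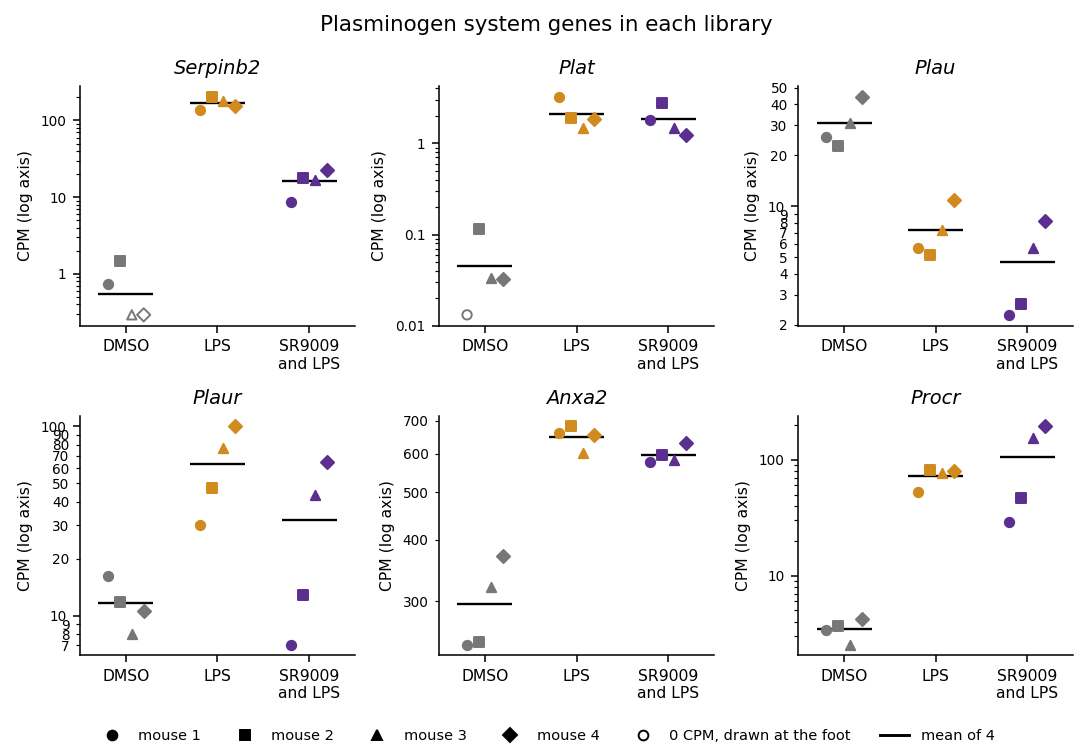
Levels (CPM, log axis) of 6 plasminogen system genes in the 4 libraries of DMSO, LPS, and SR9009 with LPS, with a symbol for each mouse and a bar at the mean; open symbols mark libraries at 0. Serpinb2 lies between DMSO and LPS alone after both agents, Plau lies below DMSO, and Plaur parts mice 1 and 2 (7.05 and 12.9 CPM) from mice 3 and 4 (43.2 and 65.1 CPM).

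Interferon-stimulated genes formed the most uniform list. All 52 tested members rose (52 of 52, against 23.7% of all genes), with a median log2 fold change of 2.74, and 51 or 52 of them lay above DMSO in each mouse. Phf11b was at 28.8, 37.6, 16.0 and 20.7 CPM in DMSO and at 307, 367, 309.8 and 266 CPM after both agents, a rise of 3.60 on the log2 scale. Oasl1, an antiviral oligoadenylate synthetase-like protein that restrains Irf7 translation, rose by 5.22 to 641 to 1024 CPM. Ifi205 (a DNA sensor of the PYHIN family) and Gbp3 (a guanylate-binding protein) rose by 6.95 and 4.09. In the libraries of LPS alone 51 of the 52 were called higher over the same DMSO libraries, a comparison in which 55.0% of all genes were called and 26.3% were higher. Against LPS alone, where 4.23% of all genes were lower, 8 of the 52 were lower after both agents and 0 were higher. Phf11b was among them, with 566 to 740.5 CPM after LPS alone, a call that ended without mouse 1, 3 or 4. The count of 8 became 1, 5, 1 and 0 without mouse 1, 2, 3 or 4, fell to 2 without the LPS library of mouse 2, and was 19 with mouse number as a factor.

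Promoter sequence of these genes shows the letters that interferon-activated factors are known to read. Stretches of RefSeq promoters (build GRCm38.p6, 5′ to 3′ on the strand of the gene) are printed with each match to the interferon-stimulated response element core (GAAA, 2 bases of any kind, GAAA), on either strand, in capitals. They were picked, after the values were seen, because their genes rose and their match lies before the gene start: Gbp5 (log2 fold change 6.55) at chr3:142496729-142496818, Gbp2 (4.70) at chr3:142620564-142620653, Rsad2 (5.48) at chr12:26456523-26456612 on the minus strand, and Phf11b (3.60) at chr14:59341331-59341420 on the minus strand.
Gbp5: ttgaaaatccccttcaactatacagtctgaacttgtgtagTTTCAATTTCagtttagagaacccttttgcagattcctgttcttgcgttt
Gbp2: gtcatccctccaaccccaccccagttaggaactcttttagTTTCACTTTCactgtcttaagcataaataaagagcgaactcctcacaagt
Rsad2: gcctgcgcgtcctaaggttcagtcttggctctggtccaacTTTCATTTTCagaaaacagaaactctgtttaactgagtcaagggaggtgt
Phf11b: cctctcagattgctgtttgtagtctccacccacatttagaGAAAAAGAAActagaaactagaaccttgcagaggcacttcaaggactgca
The match begins 165, 59, 120 and 50 bases before the gene start in these 4 genes. Of the 52 interferon-stimulated genes tested, 41 had a promoter in the table (250 bases before to 50 after the gene start), and 27 of these (65.9%) held the core, against 3.99% of 27025 promoters of all genes and 4.18% of those of tested genes. A match is a description of the letters and not a measured site.

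Cytokines and chemokines rose almost throughout. Of 21 cytokine genes tested, 18 rose and 0 fell, with a median log2 fold change of 4.67. Of 20 chemokine genes 17 rose and 1 fell (Cxcl14, not without mouse 3), with a median of 5.46. Tnf was at 9.51, 18.1, 10.2 and 12.0 CPM in DMSO and at 343, 533, 1006 and 1273 CPM after both agents, a rise of 5.98. Ccl5, which draws T cells and monocytes, rose by 8.05, from 4.04 to 17.9 CPM to 2356 to 2740.0 CPM. Cxcl9, Ccl4 and Ccl3 rose by 7.36, 6.19 and 5.37. Interleukin-18, made as a precursor that caspase-1 cleaves, had its gene Il18 rise by 3.19. Tnfsf9, the ligand of the costimulatory receptor CD137, rose by 3.72. A κB site core (GGGA, 4 bases of any kind, CC, either strand) was present in 7 of 15 cytokine promoters (46.7%) and 6 of 14 chemokine promoters (42.9%), against 30.2% of those of tested genes.

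Within this group the antagonist of interleukin-1 stood apart from LPS alone. Il1rn was at 8.56, 11.8, 6.05 and 7.79 CPM in DMSO, at 167, 341, 278 and 269.5 CPM after both agents and at 1318, 2306, 2613 and 2944 CPM after LPS alone. The 3 groups did not overlap. Il1rn rose by 4.95 ± 0.33 over DMSO and lay 3.12 below LPS alone (SE 0.30, adjusted p = 0.000302 by edgeR), and both calls held without any 1 mouse or library. Il19, a cytokine of the interleukin-10 family, had 231 counts after both agents against 2 in DMSO. This was a ratio of 183 (exact 95% interval 50.04 to 1519, counting error only). Il19 lay 3.03 below LPS alone on the log2 scale. Ccl12, a monocyte-attracting chemokine, rose by 4.23 over DMSO and lay 2.64 below LPS alone, the latter call ending without mouse 4. Against LPS alone 4 cytokine genes were lower (2 without mouse 2, 3 or 4) and 2 chemokine genes (0 without mouse 4), and 0 of either list were higher.

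Enzymes that make the small mediators of activated macrophages rose as well. Of 17 genes for arginine, nitric oxide, itaconate and prostaglandin metabolism, 13 rose and 2 fell (Ptgs1 and Alox5, 1 of them without mouse 4), with a median of 2.55. Slc7a2, which imports arginine, rose by 5.62. Ass1, which remakes arginine from citrulline, rose by 3.13, and Gch1, which starts synthesis of the nitric oxide synthase cofactor tetrahydrobiopterin, by 2.69. Among 36 genes of NF-κB and Toll-like receptor feedback, 31 rose and 1 fell (Sigirr), with a median of 2.19. Nfkbiz, the inducible IκBζ, was at 38.6, 44.2, 44.4 and 42.4 CPM in DMSO and at 647, 655, 470.4 and 462 CPM after both agents, a rise of 3.72 with no overlap. Traf1 and Tnip1, an adaptor and an inhibitor of NF-κB signalling, rose by 3.37 and 2.20. Dusp2, a nuclear phosphatase of MAP kinases, was at 0.468 to 1.08 CPM in DMSO, 60.8 to 118 CPM after both agents and 232 to 355 CPM after LPS alone. It rose by 6.83 over DMSO and lay 1.84 below LPS alone (adjusted p = 0.00173 by edgeR). In the feedback list 11 genes were lower and 0 higher than with LPS alone, and the 11 became 6, 3, 4 and 3 without mouse 1, 2, 3 or 4.

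Sensors and survival genes rose more often than they fell, where 23.7% of all genes rose and 22.7% fell. Of 26 pattern recognition genes 13 rose and 5 fell (Tlr4, Tlr5, Tlr7, Tlr13 and Clec7a, 3 of them without mouse 2), with a median of 0.56. Tlr4, the LPS receptor itself, fell by 1.38. Cd14, which hands LPS to its receptor, rose by 2.20, from 480.1 to 669.8 CPM to 2221 to 2702 CPM. Clec4e (the glycolipid receptor Mincle), Nod2 and Tlr3 rose by 4.55, 2.04 and 2.04. Of 26 cell death genes 16 rose and 3 fell, with a median of 0.85. Bcl2a1d and Bcl2a1b, near-identical genes of the survival factor A1 among which reads may be divided uncertainly, rose by 6.33 and 3.98. Cflar, which blocks caspase-8, and Casp1, the protease of the inflammasome, rose by 2.62 and 2.23.

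**Figure D3:**
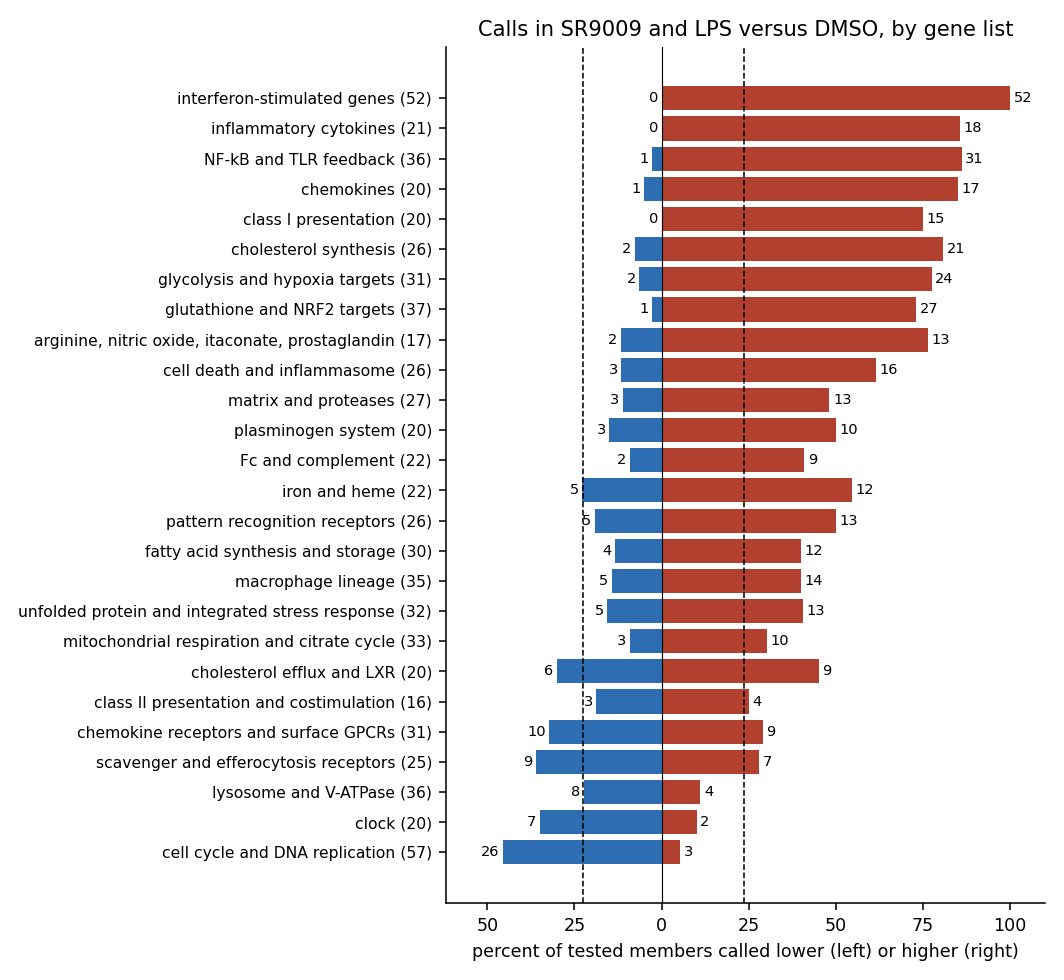
For each of 26 gene lists, the percent of tested members called lower (blue, left) or higher (red, right) in SR9009 and LPS versus DMSO; numbers at the bars are genes, the number tested is in brackets, and dashed lines mark the 22.7% and 23.7% of all genes. Interferon-stimulated genes stand at the top with 52 of 52 higher, and cell cycle genes at the foot with 26 of 57 lower.

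Genes of glutathione synthesis and of the antioxidant factor NRF2 rose, and here the state after both agents was above that after LPS alone. NRF2 is released from its inhibitor KEAP1 by electrophiles and oxidants and binds antioxidant response elements. Of 37 members tested 27 rose over DMSO and 1 fell (Gpx1, not without mouse 2, 3 or 4), with a median log2 fold change of 1.23. In SR9009 with LPS versus LPS, where 1169 of all genes (8.70%) were called, 19 of the 37 were higher and 0 lower. With LPS alone 11 were higher and 11 lower than in the same DMSO libraries (28.7% of all genes were lower), with a median of 0.08. The 19 became 12 without mouse 3, 11 without mouse 4 and 25 with mouse number as a factor. For 6 members levels are set out below, by library or as ranges, and not for every group. These 6 are given since they moved most against LPS alone or in opposite directions in the 2 comparisons.

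Gclm encodes the modifier subunit of glutamate-cysteine ligase, the first step of glutathione synthesis. It was at 114, 113, 98.4 and 90.9 CPM in DMSO, at 38.1, 31.2, 58.2 and 43.5 CPM after LPS alone and at 321, 211, 569.9 and 608 CPM after both agents. LPS alone thus lay below DMSO and both agents above it in every mouse: the log2 fold change over DMSO was 2.04 ± 0.31 (adjusted p = 0.000202 by edgeR), and that over LPS alone 3.32 ± 0.32 (adjusted p = 0.000302 by edgeR). Gsta3, a glutathione S-transferase, was at 4.92, 3.81, 2.27 and 3.12 CPM in DMSO, at 2.58, 2.13, 1.60 and 1.64 CPM after LPS and at 21.4, 15.2, 24.6 and 23.2 CPM after both agents. It rose by 2.58 over DMSO and lay 3.41 above LPS alone, with no overlap of the treated libraries with either group. In the SR9009 libraries without LPS, which are in none of these tests and of which that of mouse 1 stands apart from all others, Gsta3 was at 23.6 to 39.3 CPM and Gclm at 331 to 933 CPM.

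Slc7a11, the cystine importer that feeds glutathione synthesis, was at 3.23, 4.54, 1.84 and 1.51 CPM in DMSO, at 23.2, 22.9, 75.6 and 67.1 CPM after LPS and at 88.2, 69.3, 749 and 802 CPM after both agents. It rose by 7.27 ± 0.98 over DMSO and lay 3.18 above LPS alone (adjusted p = 0.0309 by edgeR), but the latter call ended without any 1 of the 4 mice. Srxn1, which repairs overoxidised peroxiredoxins, was at 52.4 to 68.0 CPM in DMSO and at 104, 88.4, 579 and 633 CPM after both agents, a rise of 2.52, and lay 2.76 above LPS alone with a call that ended without mouse 3 or mouse 4. In the SR9009 libraries without LPS, Slc7a11 was at 8.36, 12.7 and 18.6 CPM in mice 1 to 3 and higher in mouse 4, Srxn1 was at 32.7 to 211 CPM, Nqo1 at 10.5 to 19.5 CPM, and Prdx1 at 1065 to 1774 CPM. For Slc7a11 and Srxn1, mice 3 and 4 were well above mice 1 and 2 after both agents. Nqo1, a quinone reductase, was at 5.08 to 6.42 CPM in DMSO, 2.28 to 3.28 CPM after LPS and 10.4 to 18.9 CPM after both agents. It rose by 1.22 over DMSO and lay 2.24 above LPS alone. Prdx1, a peroxiredoxin, was at 627, 715, 679 and 768 CPM in DMSO and at 3360.0, 2731, 5342 and 5218 CPM after both agents, a rise of 2.58, and lay 2.06 above LPS alone. The calls of Nqo1, Prdx1, Gclm, Gsta3 and of the glutathione conjugate exporter Abcc1 (2.01 over DMSO, 1.57 over LPS alone) held without any 1 mouse or library. Sod2, the mitochondrial superoxide dismutase that NF-κB also induces, rose by 3.80 and was not called against LPS alone. Esd, which acts on a glutathione adduct of formaldehyde, rose by 2.33.

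Of the 37 members, 32 had a RefSeq promoter (GRCm38.p6), and 11 of these (34.4%) held the antioxidant response element core TGACNNNGC on either strand, against 14.0% of all promoters and 17.2% of those of tested genes. Stretches of 4 of these genes, chosen after their values were seen, are shown with the core in capitals because all 4 rose over DMSO, by 2.58 (Gsta3), 2.04 (Gclm), 2.58 (Prdx1) and 2.20 (Txnrd1, thioredoxin reductase). They lie on the plus strand at chr1:21240424-21240512, chr3:122245383-122245471, chr4:116685426-116685514 and chr10:82859074-82859162.
Gsta3: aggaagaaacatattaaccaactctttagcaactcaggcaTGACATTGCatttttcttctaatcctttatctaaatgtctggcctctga
Gclm: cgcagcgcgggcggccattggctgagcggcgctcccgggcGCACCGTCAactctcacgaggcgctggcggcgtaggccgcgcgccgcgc
Prdx1: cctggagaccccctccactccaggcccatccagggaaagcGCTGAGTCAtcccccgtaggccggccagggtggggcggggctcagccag
Txnrd1: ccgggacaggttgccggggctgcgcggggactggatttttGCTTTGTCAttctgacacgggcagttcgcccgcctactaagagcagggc
The core begins 121, 134, 133 and 92 bases before the gene start, in the direction of the gene in Gsta3 and on the opposite strand in the other 3. Txnrd1 was not called against LPS alone.

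**Figure D4:**
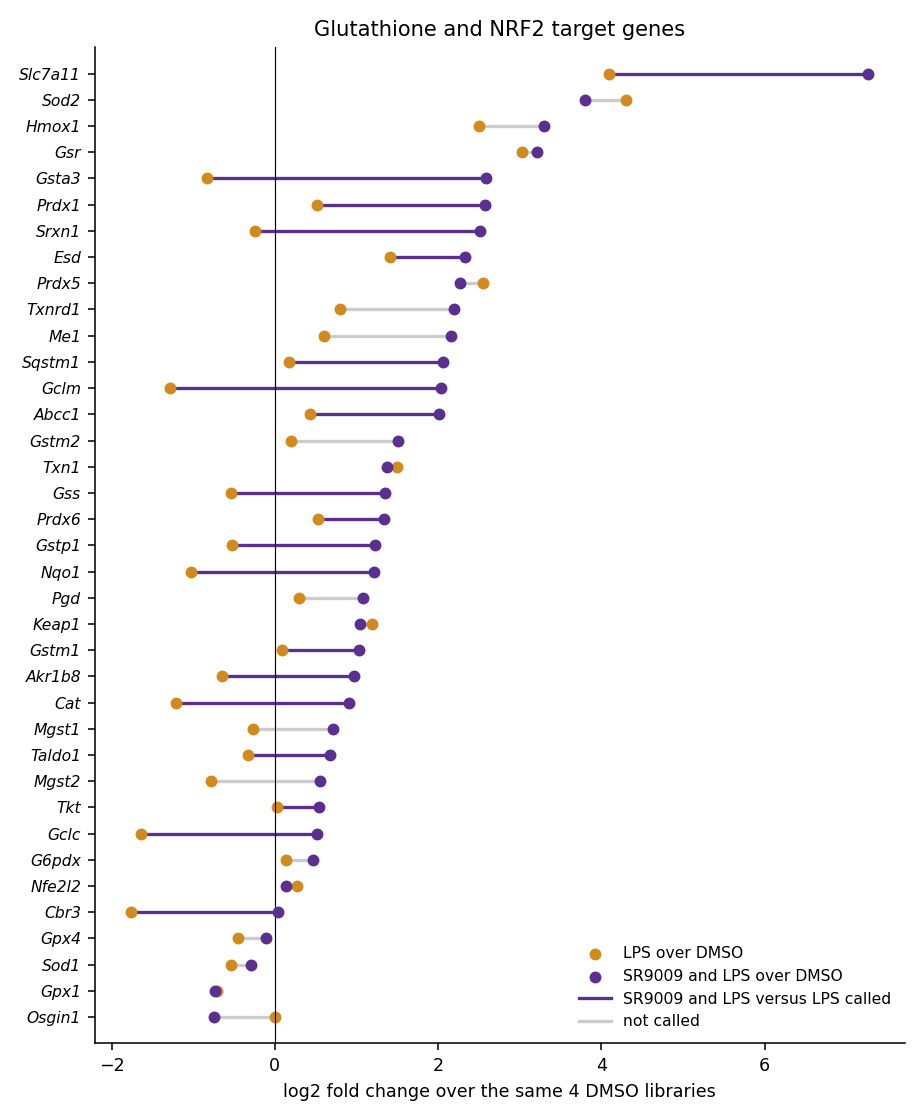
Log2 fold changes of 37 glutathione and NRF2 target genes over the same 4 DMSO libraries, in LPS alone (orange) and in SR9009 with LPS (purple); a purple line joins the 2 where SR9009 with LPS versus LPS was called. Of the 37 genes, 19 have such a line, all with the purple point to the right, and Gclm runs from −1.28 to 2.04.

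Across all genes, the state after both agents differed from LPS alone in 601 genes upward (4.47%) and 568 downward (4.23%). This count depended on each mouse: it was 558, 308, 262 and 187 without mouse 1, 2, 3 or 4. Without the LPS library of mouse 2, 3 or 4 it was 515, 718 and 598, without the SR9009 and LPS library of mouse 1 it was 738, and with mouse number as a factor it was 2370. Of the 50 genes named by rule and called in it, 30 lost the call when 1 mouse was left out. The LPS group may also differ in vehicle, as said above.

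Set against the same DMSO libraries, 17 genes were called higher after both agents but lower after LPS alone, and 3 the reverse (protein-coding, mean level 5 CPM or more). Besides Gsta3, Gclm and Nqo1, the upward genes included Slc22a4, Panx1 and Prkar2b. Prkar2b, a regulatory subunit of protein kinase A, was at 25.5 to 32.6 CPM in DMSO, 11.1 to 18.4 CPM after LPS and 44.2 to 76.5 CPM after both agents. Panx1, a channel that releases ATP, was at 19.1 to 25.2 CPM in DMSO and at 27.6, 21.8, 64.5 and 62.8 CPM after both agents, and its call over DMSO (1.00) ended without mouse 3 or mouse 4. Slc22a4, the ergothioneine transporter, was called higher over DMSO at 1.09, with groups that overlapped and a call that ended without mouse 3 or mouse 4. The 3 genes of the reverse kind were Rab31, Plod1 and Mbnl1. Rab31, a GTPase of vesicle traffic, was at 245 to 271 CPM in DMSO, 440.1 to 618 CPM after LPS and 180.0 to 208 CPM after both agents. It fell by 0.42 from DMSO, a call that ended without mouse 3 or mouse 4, while its difference of −1.50 from LPS alone held without any 1 mouse. Plod1 (a lysyl hydroxylase) and Mbnl1 (a splicing regulator) fell by 0.56 and 0.51 from DMSO, the second call ending without mouse 1, 3 or 4.

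Further genes differed from LPS alone. Ednrb, an endothelin receptor, was at 2.14 to 4.42 CPM in DMSO, 0.998 to 3.27 CPM after LPS and 9.28, 8.95, 33.4 and 29.1 CPM after both agents, a rise of 2.72 over DMSO and a difference of 3.14 from LPS alone that ended without mouse 4. It was at 16.7 to 19.3 CPM in the SR9009 libraries. Zfp704, a zinc finger protein, fell by 2.12 from DMSO and lay 2.37 above LPS alone. Eef2k, the kinase of an elongation factor, fell by 1.52 with mice 3 and 4 at 2.17 and 2.61 CPM against 14.2 and 10.2 CPM in mice 1 and 2. Its call over DMSO ended without mouse 2, 3 or 4. Eef2k lay 2.675 above LPS alone, a call that ended whichever mouse was left out. Below LPS alone were also the matrix genes Mmp13 (collagenase-3) and Tnc (tenascin-C). Mmp13 was at 2.94 to 8.65 CPM in DMSO, 1539 to 3295 CPM after LPS and 97.9 to 298 CPM after both agents, a rise of 5.36 over DMSO and a difference of −3.15 from LPS. Tnc rose by 6.36 over DMSO and lay 3.27 below LPS alone. Lipg, the endothelial lipase, rose by 9.12 to 5.11 to 38.4 CPM and lay 3.13 below LPS alone, a call that ended without mouse 2, 3 or 4. Gfi1, a transcriptional repressor, had 181 counts against 2 in DMSO, a ratio of 143 (exact 95% interval 39.1 to 1192, counting error only). It lay 3.03 below LPS alone on the log2 scale, a call that ended without mouse 2, 3 or 4.

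Metabolic genes changed in several blocks. Of 26 genes of cholesterol synthesis and its control, 21 rose and 2 fell (Scap and Ebp, 1 of them without mouse 3 or 4), with a median of 1.43. Fdps, which makes farnesyl pyrophosphate, was at 1.18, 0.731, 1.40 and 1.41 CPM in DMSO and at 6.99, 8.42, 9.29 and 8.41 CPM after both agents, a rise of 2.80 with no overlap. Srebf2, which encodes the sterol-sensing activator of this pathway, rose by 0.95, with 189 to 238 CPM in DMSO and 384 to 437 CPM after both agents. In 19 of these genes with a promoter, 1 (5.26%) held the sterol response element core TCACNCCAC, against 1.44% of all promoters. Against LPS alone 9 of the 26 were higher and 0 lower, and the 9 became 16 without mouse 1 and 3 without mouse 2, 3 or 4. In the efflux and LXR list 9 of 20 rose (5 without mouse 3 or 4) and 6 fell (3 without mouse 1), with a median of −0.03. Ch25h, which makes 25-hydroxycholesterol, rose by 3.05 and Srebf1 by 1.12, while Rxra and Nceh1, a cholesterol ester hydrolase, fell by 1.79 and 1.12. Of 30 fatty acid genes 12 rose and 4 fell. Acsl1 and Dgat2, which activate fatty acids and complete triglyceride synthesis, rose by 3.29 and 3.28, and Lpin1, a phosphatidate phosphatase, fell by 3.32.

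Glycolysis and hypoxia targets rose in 24 of 31 identifiers and fell in 2 (1 without any 1 of the mice), with a median of 1.41. Aldoa, a glycolytic enzyme, has 2 identifiers in the table, called in opposite directions (1.06 and −1.76), so its reads may be divided uncertainly. Pfkp, a phosphofructokinase, was at 56.1 to 65.1 CPM in DMSO and 281 to 377 CPM after both agents, a rise of 2.50. Pfkfb3, which makes the activator of phosphofructokinase, rose by 3.27 and lay 1.56 below LPS alone, a difference not called without mouse 2. Hk2 (hexokinase) and Ero1a (an oxidase of the endoplasmic reticulum) rose by 2.18 and 2.16. Of 33 respiratory and citrate cycle genes 10 rose, 3 fell and 20 were not called, with a median of 0.22. Of all genes 46.4% were called and 23.7% rose, so the rises and the uncalled genes were near the shares of all genes. The 10 became 6 without mouse 2, 3 or 4 and with upper-quartile scaling. The 3 became 5 with mouse number as a factor. Idh1, the cytosolic isocitrate dehydrogenase, fell by 2.00, from 420.0 to 549 CPM to 88.0 to 141 CPM. Fh1, fumarase, fell by 0.86, and Cycs, cytochrome c, rose by 1.81. In iron handling 12 of 22 rose (8 without mouse 3) and 5 fell (4 without mouse 1), with a median of 0.59. The share of falls was near the 22.7% of all genes, while 23.7% of all genes rose. Cd163 (the haemoglobin scavenger receptor), Steap3 (a ferrireductase) and Ncoa4 (the ferritinophagy receptor) fell by 3.21, 1.65 and 1.53. Slc40a1, the iron exporter ferroportin, chosen after its values were seen, was not called over DMSO (0.06). Its log2 fold change was −4.07 in LPS over DMSO, and it lay 4.13 above LPS alone after both agents. Unlike the genes named by rule, Slc40a1 was not followed through the fits with a mouse left out.

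Cell cycle genes showed opposite results in the 2 pairs of mice. Over all 4 mice 26 of 57 were called lower and 3 higher, with a median of −1.01. The median log2 ratio within a mouse (0.5 CPM added) was 0.47 in mouse 1, 0.13 in mouse 2, −2.35 in mouse 3 and −2.23 in mouse 4, and 43, 33, 3 and 3 of the 57 genes lay above 0. Mki67, the proliferation marker Ki-67, chosen as an example after its values were seen, was at 182, 209, 466 and 427 CPM in DMSO and at 326, 267, 85.6 and 91.2 CPM after both agents. Mice 3 and 4 thus started higher and ended lower. Its pooled log2 fold change of −0.74 was not called. In fits of the pairs alone, 22 genes were higher and 8 lower in mice 1 and 2, and 3 were higher and 51 lower in mice 3 and 4. The pooled count of 26 lower genes became 15 with mouse number as a factor, 8 without mouse 3 and 7 without mouse 4, and 14 without the DMSO library of either mouse alone. The difference between the pairs was not tested, since the pairs were seen in the values, and what sets the mice apart is not given in the labels. Kif20a, a mitotic kinesin, was lower in all 4 mice, with 39.7, 43.8, 91.1 and 100.2 CPM in DMSO and 21.5, 16.8, 6.89 and 7.17 CPM after both agents. The 3 genes that rose did so in every mouse: Ccnd2 (cyclin D2, 4.36), Cdkn1a (the cyclin-dependent kinase inhibitor p21, 2.31) and Ccnd3 (cyclin D3, 0.77).

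The unfolded protein and integrated stress response list parted the mice less. Of 32 genes 13 rose and 5 fell, with a median of 0.50 and within-mouse medians of −0.15, 0.10, 0.84 and 0.60. Mice 1 and 2 alone gave 7 higher and 9 lower, and mice 3 and 4 alone gave 21 higher and 2 lower. The 13 became 5 without mouse 3 or 4, and the 5 became 2 without mouse 1 or 2. Mthfd2, a mitochondrial folate enzyme, rose evenly by 2.53, from 23.4 to 33.1 CPM to 137 to 184 CPM. Asns, asparagine synthetase, was at 20.5, 20.0, 60.0 and 73.5 CPM after both agents against 5.60 to 10.4 CPM in DMSO, a rise of 2.60. Ddit4, an inhibitor of mTORC1, rose by 1.51, and Eif2ak3, the stress kinase PERK, fell by 1.24.

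**Figure D5:**
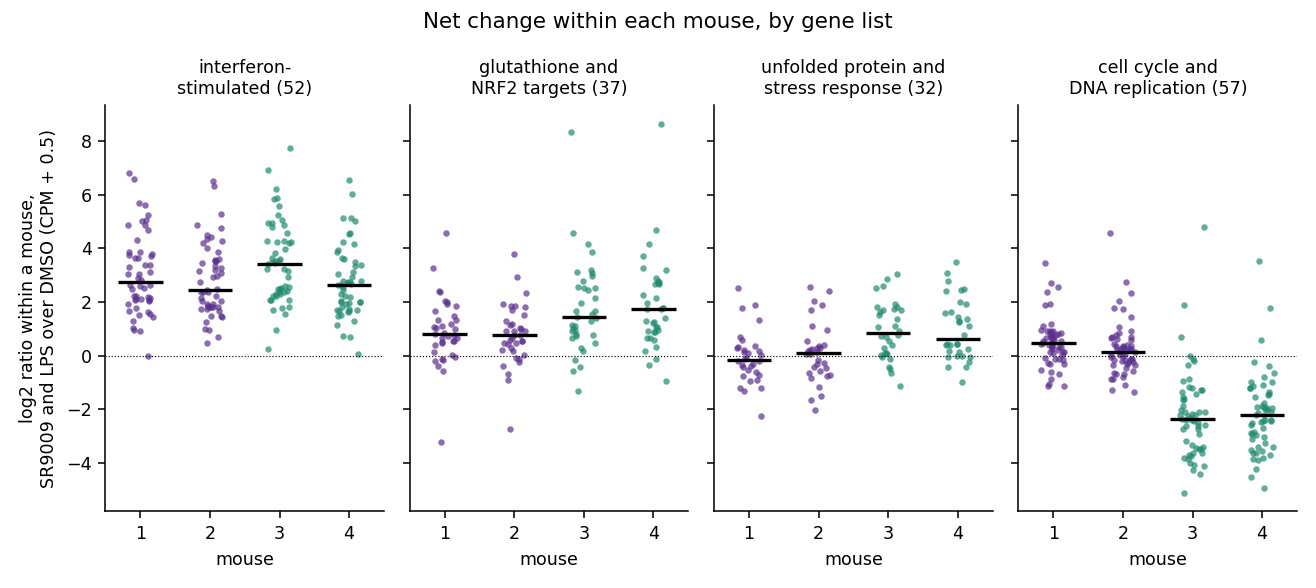
Log2 ratio of SR9009 with LPS over DMSO within each mouse (0.5 CPM added to each level) for the genes of 4 lists; each point is a gene, bars are medians, and colours part mice 1 and 2 from mice 3 and 4. Interferon-stimulated genes have medians of 2.73, 2.46, 3.43 and 2.62, while cell cycle genes have 0.47, 0.13, −2.35 and −2.23.

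Clock genes were mostly lower or not called. Of 20 tested genes 7 fell (5 without mouse 2) and 2 rose (1 without mouse 3 or 4), against 22.7% and 23.7% of all genes. Their median of −0.06 was near the −0.05 of all genes. With LPS alone 8 of the 20 were lower and 3 higher than in the same DMSO libraries (28.7% and 26.3% of all genes). Against LPS alone 1 of the 20 was higher after both agents, where 4.47% of all genes were higher, and 0 were lower. That gene was Bhlhe41, with a call that ended without mouse 2, 3 or 4. Hlf did not pass the filter on low counts. Nr1d2, the gene of REV-ERBβ, was at 70.7, 69.4, 68.8 and 63.6 CPM in DMSO and at 41.6, 28.6, 21.4 and 20.9 CPM after both agents. The groups did not overlap, and the log2 fold change was −1.28 ± 0.20 (adjusted p = 0.000225 by edgeR). Nr1d1, the gene of REV-ERBα, was at 7.32 to 8.10 CPM and 4.06 to 6.99 CPM, which did not overlap, but its log2 fold change of −0.58 ± 0.45 was not called (adjusted p = 0.309 by edgeR). Arntl, which encodes the clock activator BMAL1 and is repressed by REV-ERB, was at 17.4, 17.5, 12.3 and 14.1 CPM in DMSO and at 25.2, 24.0, 11.3 and 12.7 CPM after both agents. It was higher in mice 1 and 2 and lower in mice 3 and 4, with a pooled value of 0.26 ± 0.32 that was not called (adjusted p = 0.545 by edgeR).

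Of the clock output factors, Tef fell by 2.65, from 108 to 146 CPM to 14.2 to 24.2 CPM. Dbp was at 29.7, 19.8, 2.45 and 3.20 CPM after both agents against 33.3 to 47.9 CPM in DMSO. It was lower in every mouse, and its log2 fold change of −1.58 was not called (adjusted p = 0.0755 by edgeR), but was with mouse number as a factor (−2.17). Nfil3, which competes with these factors for their sites, rose by 1.80. Of the repressors, Per2 and Per3 fell by 1.00 and 1.58, Cry1 rose by 0.76, and Per1 and Cry2 were not called. The calls of Per3 (without mouse 2, 3 or 4) and Cry1 (without mouse 3 or 4) were lost. Rora, an activator that shares sites with REV-ERB, fell by 0.78 and lost its call without mouse 1. Npas2 fell by 2.03 from levels below 1 CPM, with a call lost in 12 of 22 alternatives. Csnk1e, a kinase of the period proteins, fell by 1.11. Clock, Ciart, Bhlhe40, Bhlhe41 and Csnk1d were not called.

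Among genes of antigen presentation, 15 of 20 class I genes rose and 0 fell, with a median of 0.93. Tap1, a subunit of the peptide transporter, was at 182, 223, 149.8 and 173 CPM in DMSO and at 737, 945, 505 and 571 CPM after both agents, a rise of 1.92. Nlrc5, the class I transactivator, H2-T22 and Psme2 rose by 2.34, 2.14 and 1.94. H2-T22 belongs to a family of near-identical genes, so its reads may be shared with others. Of 16 class II and costimulation genes 4 rose and 3 fell, with a median of 0.18, counts near the 23.7% and 22.7% of all genes (the 3 became 1 without mouse 1, 2 or 3, and 5 with mouse number as a factor). Ciita, Cd74 and H2-Aa fell, by 5.35, 1.42 and 1.37, and Cd40, Tnfsf4, Icosl and Cd86 rose. Cd40 was at 5.68 to 11.0 CPM in DMSO and 292 to 402 CPM after both agents, a rise of 5.42. B cells also express class II genes, and 2 of 2 tested B-cell markers, Cd79b and Ighm, were called lower. Their part was not tested.

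Of 25 scavenger and efferocytosis receptors 7 rose and 9 fell, with a median of −0.06, against 23.7% and 22.7% of all genes. Msr1, scavenger receptor A, was at 165 to 186 CPM in DMSO and 792 to 959 CPM after both agents, a rise of 2.29, and lay 0.89 below LPS alone. Cd300a and Havcr2 (TIM-3), both receptors for lipids on dying cells, fell by 2.96 and 2.88. Of 31 chemokine and other G protein-coupled receptors 9 rose and 10 fell, with a median of −0.32. Neither list was tested against all genes. Adora2a, a receptor for adenosine, rose by 7.01, from 0.164 to 0.819 CPM to 29.6 to 83.0 CPM, and Ccrl2 by 3.26. In the Fc and complement list 9 of 22 rose and 2 fell. Against LPS alone, where 4.23% of all genes were lower, 6 of the 22 were lower and 0 higher. The 6 became 0 without mouse 3. C3, the central complement component, rose by 2.94 and the Fc receptor genes Fcgr1 and Fcer1g by 1.80 and 0.84, while C5ar2, a receptor for C5a, fell by 2.73. The 2 that fell became 1 without mouse 1, 3 or 4 and 8 with mouse number as a factor.

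Of 35 lineage genes 14 rose and 5 fell, with a median of 0.58. Against LPS alone, where 4.23% of all genes were lower, 9 of the 35 were lower and 1 higher. The 9 became 1 without mouse 4. Batf, Mitf and Klf6, transcription factors, rose by 3.53, 1.31 and 1.16, and Irf4 fell by 5.71, from 3.38 to 5.18 CPM to 0 to 0.118 CPM. Of 27 matrix genes 13 rose and 3 fell. Vcan, the proteoglycan versican, rose by 6.03 and lay 1.88 below LPS alone, and Timp2, an inhibitor of metalloproteinases, fell by 1.46. Of 36 lysosome genes 24 were not called, 4 rose (2 without mouse 3 or 4) and 8 fell (5 without mouse 2), with a median of −0.03, the share of falls being near the 22.7% of all genes. Atp6v1h rose by 0.90, and Gusb and Atp6v0d2 fell by 0.82 and 0.95.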

How the data were processed

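The deposited table held raw read counts per gene for the 16 libraries, with gene symbols and coordinates; per the submitters' processing notes HISAT2 and the build GRCm39 (mm39) were used. Neither the counting tool nor its use of strand is stated in the labels, so overlapping and antisense genes cannot be told apart. Deposited FPKM tables were not used. No step for duplicate reads is recorded.

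Of 56748 genes, 13438 (11587 protein-coding) passed edgeR's filterByExpr over all 16 libraries (minimum count 10, minimum total 15), and TMM factors were computed over the same libraries. The 12 libraries of DMSO, LPS, and SR9009 with LPS entered 1 fit with a mean for each group (edgeR 4.0.16, glmQLFit with robust estimation, R 4.3.3). The common biological coefficient of variation was 0.283. A gene was called at a Benjamini-Hochberg adjusted p under 0.05, over all genes tested. SE was derived from the log2 fold change and its F statistic. Figures and within-mouse ratios used Python 3.11.15, pandas 2.3.3 and matplotlib 3.10.9. On simulated counts for this comparison (12977 genes), 58% of 100 genes changed by 1 on the log2 scale and 100% of 100 changed by 2 were recovered. The simulation had a dispersion of 0.08 for every gene, no other changed genes and no differences between mice. In the data 46.4% of genes were called and the mice differed, so these shares need not hold there.

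Each mouse gave 1 library to each group, per the labels, so mouse numbers pair the libraries. Deviations from the group means correlated at 0.128, 0.0867, 0.0809 and 0.101 for the same mouse and at −0.106 to 0.0711 for different mice. No 2 libraries of a group agreed within sampling noise. Whether mice beyond their number differed in litter or day is not given.

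Genes were named by rule: the 10 largest rises and 10 largest falls (protein-coding, mean level of 5 CPM or more, same direction in 4 of 4 mice), the 8 largest differences a direction from LPS alone among genes called in both comparisons, up to 6 genes a direction called in opposite ways by both agents and by LPS alone, up to 4 members of each list by smallest p, and all tested plasminogen system and clock genes. Some genes fitting this rule are left out of the text but stay in the counts and medians of their lists. Gbp5, Gbp2, Rsad2, Txnrd1, Mki67, Slc40a1, Tlr4, Cd74, H2-Aa and the few genes given in brackets or named as those that fell were named after their values were seen. Members, lists and rules were chosen with earlier results of these data known. Alternatives were upper-quartile or RLE scaling, a filter of 1 CPM in 4 libraries or none, DESeq2 1.42.0, limma-voom (limma 3.58.1), mouse number as a factor, other sets of libraries, leaving out each mouse and each library, and, chosen after seeing the data, each pair of mice alone. Motifs were searched on both strands of RefSeq promoters (GRCm38.p6, 250 bases before to 50 after the gene start), matched by symbol.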

Additional observations from a re-analysis of the deposited data

Results flagged for a closer look

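In 10 of 287 pairs of a named gene and a group, 1 of the 4 libraries lay far from the other 3 for the spread of the group (Dixon's ratio of gap to range), where chance gives about 1 in 20. After SR9009 and LPS these were Mmp13 in mouse 1 (97.9 CPM, others 287 to 298), Prkar2b in mouse 2 (44.2 CPM, others 71.5 to 76.5), F10 in mouse 2 (15.3 CPM, others 18.3 to 18.8), Dusp2 in mouse 2 (118 CPM, others 60.8 to 68.9) and Cd14 in mouse 3 (2220.0 CPM, others 2640.0 to 2700.0). In DMSO they were Traf1 in mouse 2 (33.0 CPM, others 23.6 to 24.5), Bcl2a1d in mouse 2 (1.88 CPM, others 0.756 to 0.910), Cd163 in mouse 4 (21.5 CPM, others 27.1 to 28.2), Cdkn1a in mouse 4 (328 CPM, others 249 to 259) and Atp6v0d2 in mouse 4 (10.7 CPM, others 8.35 to 8.56). All 10 genes were called against DMSO, and in each the 2 groups did not overlap.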

How the results depend on the processing

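The 6238 genes called between SR9009 with LPS and DMSO became 4131 when all 16 libraries shared 1 fit, and stayed within 1.5 times in every other alternative run, from 4737 without mouse 3 to 8420 in mice 3 and 4 alone. No called gene changed sign in the other alternatives, but 47 did in mice 1 and 2 alone and 7 in mice 3 and 4 alone. Of 144 named genes called, 128 kept call and sign in all alternatives run for them, and 11 lost the call when 1 mouse was left out.

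The 1169 genes called between SR9009 with LPS and LPS alone depended more on the fit. They became 2071 with DESeq2, 486 with only the 8 libraries compared, 241 with all 16 libraries, 3705 in mice 1 and 2 alone and 3863 in mice 3 and 4 alone, and ranged from 187 to 1162 when a mouse or library was left out. With upper-quartile scaling 62.0% of called genes were higher, against 51.4%. Of 50 named genes called, 17 kept the call in all alternatives, and the cause of the losses was not tested.

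Pairing by mouse (the replicate block) gave 7302 calls against DMSO and 2370 against LPS alone. With only the 8 libraries compared, it gave 5518 against DMSO (5739 without the block) and 2637 against LPS alone. Among named genes, in the fit of 12 libraries, it added the calls of 4 against DMSO and ended that of Bhlhe41 against LPS alone, and it ended no other. With 8 libraries it also ended that of Panx1 against DMSO.

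Among named genes, those that changed sign were all uncalled in the comparison with DMSO. With upper-quartile scaling Tfpi was at −0.0483, Per1 at −0.0214 and Csnk1d at −0.0507. In mice 1 and 2 alone Plaur was at −0.50, Tfpi at −0.034, Per1 at −0.48 and Ciart at −0.0267, and in mice 3 and 4 alone S100a10 was at −0.0761, Arntl at −0.11 and Cry2 at 0.34. When a mouse or library was left out, F13a1 ranged from −1.57 to 0.16, Tfpi from −0.0274 to 0.19, Per1 from −0.0904 to 0.39 and Cry2 from −0.40 to 0.0911.

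With 4 mice a group, a change of 1 on the log2 scale is recovered in part only, so genes not called are not shown to be unchanged.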
